A study of Homo sapiens with 4 samples.

Results

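Short exons of 28 to 50 nt were examined in the skipped-exon table of an RNA-seq study of HEK293T cells, a human embryonic kidney line. An exon was taken when its length lay in that window and its junction reads, those spanning a splice junction and counted for inclusion or for skipping, averaged at least 20 over the 4 libraries. Each exon entered once, by its row with the most reads. This gave 2167 exons in 1773 genes, out of 43103 exons of any length that met the same minimum. The table held 2651 distinct exons of this length, and 484 fell below the minimum. Beside the minimum, the 71 exons with a mean of 20 to 25 reads had a median inclusion level of 0.871, and the 99 exons with 15 to just under 20 reads had 0.774. At the edges of the length window, 54.8% of the 31 exons of 28 nt and 26.1% of the 69 exons of 27 nt had a mean inclusion above 0.95. At the upper edge the shares were 60.8% of 125 exons of 50 nt and 57.1% of 205 exons of 51 nt.

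The libraries came from 293T cells transfected at 70 nM with a gapmer antisense oligonucleotide (ASO) against SNORD89 (2 libraries), or given no ASO (2 libraries), with RNA taken at 48 hours. SNORD89 belongs to the C/D box snoRNAs, small nucleolar RNAs that mostly guide methylation of other RNAs, and a gapmer is a modified DNA strand that directs cleavage of the RNA it pairs with. No control ASO is named in the labels, and all libraries are of poly(A) RNA from 1 cell line. The labels call the libraries of a group biological replicates. Neither the labels nor the column names tie the table's first or second set to the ASO, so each direction below is the first set against the second and cannot be read as an effect of the ASO or of its absence.

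Exons of vertebrate genes are usually recognised as units, by factors that bind both of their ends and by enhancer sequences between them. A short exon leaves little room for these factors, and many short exons are included in only some cell types. Microexons, the shortest class, are best known from neurons, where the splicing factor SRRM4 promotes their inclusion, while PTBP1 represses many neuronal exons in other cells. When the length of a coding exon is a multiple of 3, skipping it removes whole codons and keeps the reading frame. Otherwise skipping shifts the frame, and such transcripts are often degraded by nonsense-mediated decay.

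Sequences of the exons on which the results turn are shown on the transcribed strand, 5′ to 3′, with the exon in capitals and the 15 adjoining bases of each neighbouring exon in lower case. They come from GENCODE release 29 transcripts, matched by gene, exon length and intron spacing. Positions are those of the deposited table in hg19, 1-based. The first set holds alternative exons with many reads and exons in genes known for a regulated short exon.
HNRNPA2B1 36 nt, chr7:26237451-26237486, minus strand: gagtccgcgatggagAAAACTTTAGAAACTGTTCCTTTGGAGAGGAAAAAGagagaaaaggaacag
GNAS 45 nt, chr20:57473996-57474040, plus strand: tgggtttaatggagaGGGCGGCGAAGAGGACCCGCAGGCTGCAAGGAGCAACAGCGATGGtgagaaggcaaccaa
ACLY 30 nt, chr17:40052873-40052902, minus strand: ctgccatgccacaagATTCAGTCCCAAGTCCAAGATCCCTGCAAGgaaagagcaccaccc
RALY 48 nt, chr20:32661625-32661672, plus strand: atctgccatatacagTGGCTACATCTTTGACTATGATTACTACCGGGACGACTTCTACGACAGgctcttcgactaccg
PCBP2 39 nt, chr12:53861589-53861627, plus strand: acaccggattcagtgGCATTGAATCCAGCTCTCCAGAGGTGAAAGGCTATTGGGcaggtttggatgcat
APLP2 36 nt, chr11:130007151-130007186, plus strand: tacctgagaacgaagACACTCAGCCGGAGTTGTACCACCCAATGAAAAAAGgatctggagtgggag
INSR 36 nt, chr19:7150508-7150543, minus strand: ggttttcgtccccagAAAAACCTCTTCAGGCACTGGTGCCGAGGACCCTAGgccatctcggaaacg
NUMB 33 nt, chr14:73783098-73783130, minus strand: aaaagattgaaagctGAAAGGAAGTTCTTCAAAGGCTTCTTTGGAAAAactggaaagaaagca
MBNL1 36 nt, chr3:152173331-152173366, plus strand: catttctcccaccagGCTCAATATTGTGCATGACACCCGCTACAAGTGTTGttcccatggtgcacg
CLTA 38 nt, chr9:36197548-36197585, plus strand: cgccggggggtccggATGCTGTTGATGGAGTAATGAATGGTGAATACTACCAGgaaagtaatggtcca
CLTA 36 nt, chr9:36210622-36210657, plus strand: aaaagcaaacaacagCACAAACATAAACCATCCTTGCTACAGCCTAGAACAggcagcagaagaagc

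The PTB family is shown separately, since 3 paralogous genes carry a 34 nt exon of similar sequence. The first 3 exons below are these, and the other 2 are further short exons of PTBP1 and PTBP3.
PTBP1 34 nt, chr19:807869-807902, plus strand: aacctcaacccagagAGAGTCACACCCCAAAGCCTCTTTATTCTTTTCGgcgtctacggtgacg
PTBP2 34 nt, chr1:97271975-97272008, plus strand: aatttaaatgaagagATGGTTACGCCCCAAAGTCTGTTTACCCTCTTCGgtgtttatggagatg
PTBP3 34 nt, chr9:114993660-114993693, minus strand: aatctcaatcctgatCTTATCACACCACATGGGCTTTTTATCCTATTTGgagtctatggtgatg
PTBP1 31 nt, chr19:799413-799443, plus strand: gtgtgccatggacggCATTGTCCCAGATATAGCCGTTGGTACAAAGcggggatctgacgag
PTBP3 34 nt, chr9:115092721-115092754, minus strand: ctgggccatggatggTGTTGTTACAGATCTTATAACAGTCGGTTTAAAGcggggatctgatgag
Base by base and without gaps, the 34 nt exons of PTBP1 and PTBP2 were identical at 25 of 34 positions (73.5%), those of PTBP1 and PTBP3 at 22 (64.7%), and those of PTBP2 and PTBP3 at 21 (61.8%).

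The last set holds coding exons called different between the sets of libraries and described further below.
PLEKHA1 41 nt, chr10:124187792-124187832, plus strand: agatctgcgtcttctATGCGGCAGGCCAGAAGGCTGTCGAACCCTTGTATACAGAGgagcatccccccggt
TMEM241 47 nt, chr18:21010595-21010641, minus strand: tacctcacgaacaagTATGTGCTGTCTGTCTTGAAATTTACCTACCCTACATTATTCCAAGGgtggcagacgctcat
LPHN3 39 nt, chr4:62778437-62778475, plus strand: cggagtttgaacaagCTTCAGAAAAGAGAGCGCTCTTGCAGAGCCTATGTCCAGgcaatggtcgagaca
KIF13A 39 nt, chr6:17790103-17790141, minus strand: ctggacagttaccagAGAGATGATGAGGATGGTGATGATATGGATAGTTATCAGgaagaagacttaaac
EYA4 50 nt, chr6:133703530-133703579, plus strand: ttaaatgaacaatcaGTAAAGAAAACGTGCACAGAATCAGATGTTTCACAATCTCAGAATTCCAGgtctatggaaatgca
XRN1 39 nt, chr3:142031978-142032016, minus strand: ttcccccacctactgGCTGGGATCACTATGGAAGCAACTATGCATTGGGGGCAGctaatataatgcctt
IL17RC 45 nt, chr3:9962609-9962653, plus strand: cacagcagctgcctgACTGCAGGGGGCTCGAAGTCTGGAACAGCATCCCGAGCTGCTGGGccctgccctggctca
ST3GAL3 48 nt, chr1:44257773-44257820, plus strand: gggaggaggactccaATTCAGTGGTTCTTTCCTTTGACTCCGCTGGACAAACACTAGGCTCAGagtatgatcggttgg
FAAH 40 nt, chr1:46877284-46877323, plus strand: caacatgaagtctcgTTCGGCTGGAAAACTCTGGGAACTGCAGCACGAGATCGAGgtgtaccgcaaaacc
FGD3 31 nt, chr9:95782113-95782143, plus strand: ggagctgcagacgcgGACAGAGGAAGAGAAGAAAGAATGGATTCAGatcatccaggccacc
DNM3 30 nt, chr1:172062836-172062865, plus strand: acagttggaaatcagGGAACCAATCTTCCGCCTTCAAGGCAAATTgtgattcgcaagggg

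Inclusion level is the fraction of a gene's transcripts over an exon that contain it, estimated from inclusion and skipping reads divided by the length of each form. Of the 2167 short exons, 1153 (53.2%) had a mean inclusion above 0.95, 623 (28.7%) lay between 0.05 and 0.95, and 391 (18%) lay under 0.05. The corresponding shares were 30.4%, 39.4% and 30.2% among the 434 microexons of 3 to 27 nt and 66.7%, 22.7% and 10.7% among the 40502 exons of 51 nt or more. Short exons thus lay between the other length classes in each share. Their median inclusion was 0.960, against 0.497 for microexons and 0.984 for longer exons. These are counts over exons of the same 4 libraries and carry no test. Every tested exon had at least 1 inclusion and 1 skipping read over the libraries, so exons never seen skipped are not among them.

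**Figure D1:**
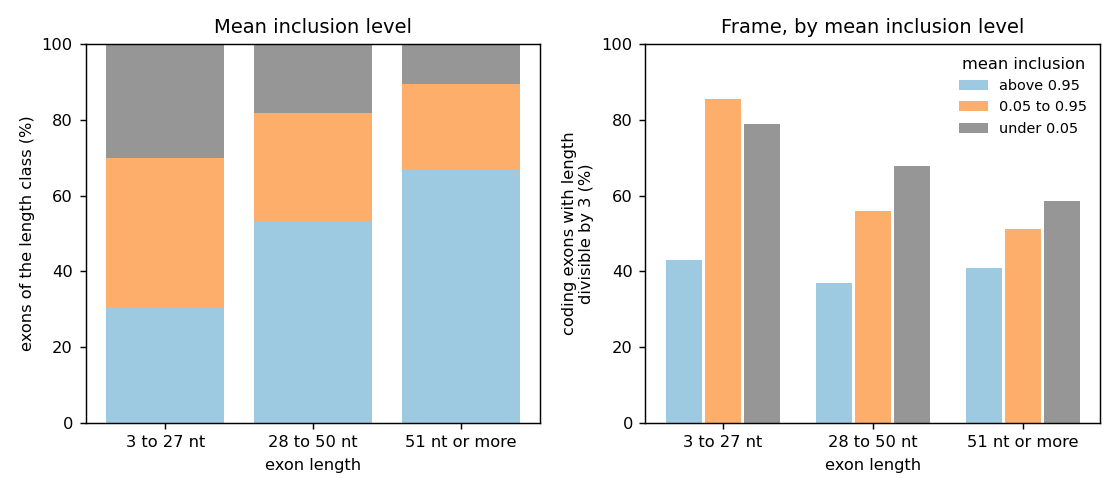
Left, share of exons (y axis, percent) in each range of mean inclusion level, by exon length; right, share of coding exons whose length is divisible by 3, by length class and mean inclusion. Exons of 28 to 50 nt lie between the other classes on the left (53.2% above 0.95), and on the right their share divisible by 3 goes from 36.9% above 0.95 to 67.7% under 0.05.

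By the transcript match, 1544 short exons (71.3%) were coding, 176 partly coding and 395 non-coding, and 52 were not matched. Coding exons made up 85.0% of the class above 0.95, 64.7% of the intermediate class and 41.2% of the class under 0.05. Lengths divisible by 3 made up 36.9% of coding exons above 0.95, 55.8% of those between, and 67.7% of those under 0.05. Without the restriction to coding exons, the shares were 35.8%, 46.7% and 45.8%. The same order was present in coding exons of 51 nt or more, at 40.8%, 51.1% and 58.5%. Without the restriction to coding exons, these longer exons had 39.3%, 44.1% and 36.1%, with the lowest share under 0.05. Coding microexons had 42.9%, 85.5% and 78.8%, with the highest share in the intermediate class. Of the 696 coding exons divisible by 3, 348 began at a codon start, so that skipping removes codons without changing one at the junction.

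The frame was also visible at the level of single lengths. Between 30 and 48 nt there are 7 multiples of 3, and each had more exons than both neighbouring lengths and a smaller share above 0.95. The lowest share was at 39 nt, where 34.4% of 125 exons lay above 0.95 and the median inclusion was 0.631. At 43 nt, which is not a multiple of 3, the share was 67.6% of 102 exons. Of the 17 multiples of 3 from 51 to 99 nt, 17 had more exons than both neighbours and 12 had a smaller share above 0.95. Of the 8 multiples from 6 to 27 nt, 7 had a smaller share.

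**Figure D2:**
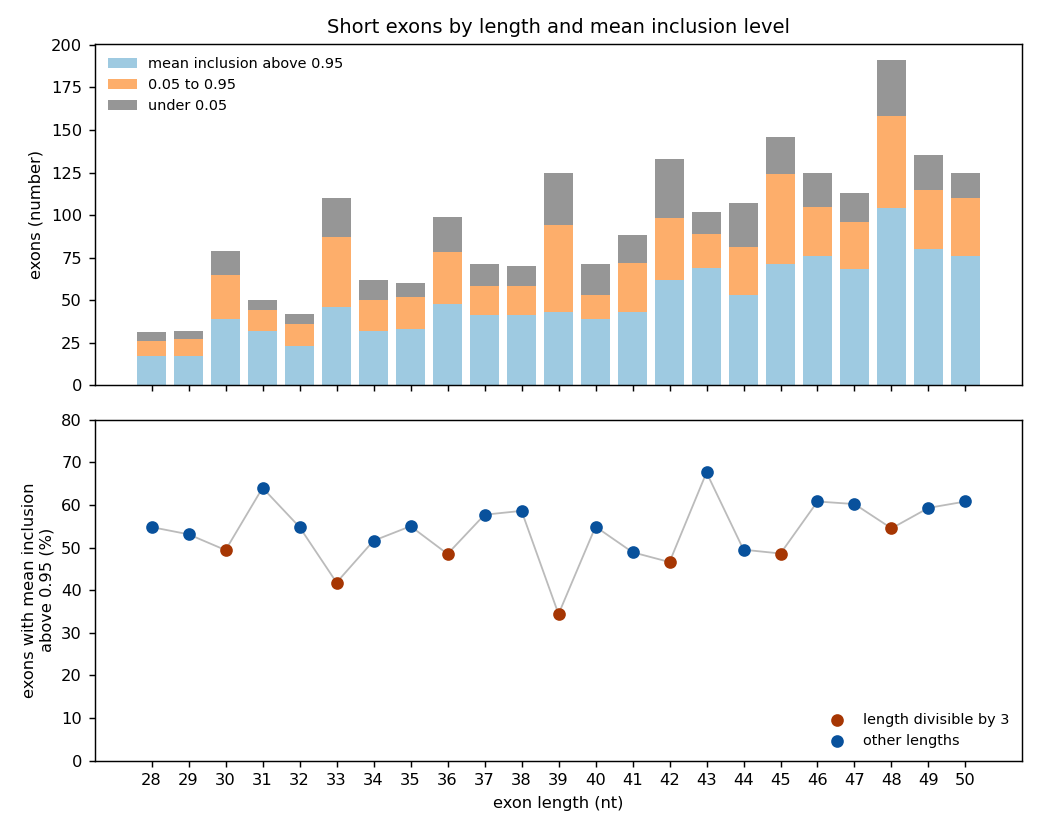
Top, number of short exons at each length in nt, stacked by mean inclusion level; bottom, share of exons at each length with a mean inclusion above 0.95, with lengths divisible by 3 in red. All 7 red points lie below both neighbouring points, the lowest at 39 nt (34.4%).

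Short exons had a median GC content of 46.7%, against 50.8% for exons of 51 nt or more and 47.4% for microexons. They ended in AG, the usual last bases of an exon before a 5′ splice site, in 52.7% of cases, against 55.4% of longer exons. The median upstream and downstream introns were 1677 and 1644 nt, against 1915 and 1798 nt beside longer exons. Within the window, the introns were 1501 and 1316 nt beside exons above 0.95, and 2395 and 2318 nt beside exons under 0.05. The direction was the same in the other length classes. Microexons had 1101 and 1089 against 1719 and 1423 nt, and longer exons had 1872 and 1699 against 1908 and 2010 nt. Most genes (1456) held 1 short exon and 317 held more, with DMKN, which encodes dermokine, holding 7. A splice site was shared with another tested exon by 415 short exons (19.2%), the same share as over all tested exons (19.2%), so some exons of the set are alternative ends of another.

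The depth of the 4 libraries over short exons was 1207362 and 1201873 junction reads in the first set against 1324254 and 1358788 in the second, with a median per exon of 178, 155, 125 and 135. Library 2 of the second set stood apart. Among the 623 intermediate exons, it differed from library 1 of its own set by more than 0.2 in 20.9%, against 4.98% between the libraries of the first set. Over intermediate exons of all lengths these shares were 20.8% and 6.59%, so the library stood apart to a like degree there. Library 1 of the second set differed that much from the first set's libraries in 9.47% and 8.83%. In the library that stood apart, 11.9% of intermediate exons were at full inclusion and 5.46% at none, against at most 6.58% and 2.57% in the other libraries. It had no reads on 5 short exons, whose means were taken over the libraries with reads. Its part in the differences below is given as values with and without it.

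Several deeply covered short exons were split between both forms in every library, with levels that varied little. HNRNPA2B1 encodes a nuclear RNA-binding protein whose B1 isoform has an added 36 nt exon near its amino end and whose A2 isoform lacks it. This exon was included at 0.287 and 0.285 in the first set against 0.281 and 0.267 in the second, on 12075 to 15480 reads a library. Its sets did not overlap. GNAS encodes the stimulatory G protein alpha subunit, and its 45 nt exon separates the long from the short form. Its inclusion was 0.635 and 0.646 in the first set against 0.638 and 0.674 in the second. ACLY encodes ATP citrate lyase, which makes cytosolic acetyl-CoA, and its 30 nt exon was at 0.566 and 0.575 against 0.569 and 0.631. In GNAS and ACLY library 2 of the second set was the highest, and the other 3 libraries lay close together.

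RALY, an RNA-binding protein of the hnRNP family, included its 48 nt exon at 0.807 and 0.756 in the first set against 0.765 and 0.835 in the second. MORF4L2, a chromatin protein, had a non-coding 49 nt exon at 0.281 and 0.307 against 0.286 and 0.251. NAP1L4, a histone chaperone, had a partly coding 38 nt exon at 0.303 and 0.364 against 0.357 and 0.345. The sets overlapped in each of these 3 exons. The authors' deposited table gave a difference of 0.012 for HNRNPA2B1, -0.015 for GNAS, -0.029 for ACLY, -0.018 for RALY, 0.026 for MORF4L2 and -0.017 for NAP1L4. The lowest FDR, the p-value adjusted for the number of events, was 0.981 in the authors' deposited table, for MORF4L2.

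Lower on the scale, MYL6, an essential light chain of non-muscle and smooth-muscle myosin, included its 45 nt exon at 0.184 and 0.177 against 0.186 and 0.208. APLP2, a relative of the amyloid precursor protein, had 0.121 and 0.1001 against 0.103 and 0.142 for its 36 nt exon. ENSA, an inhibitor of the phosphatase PP2A, had 0.0892 and 0.0894 against 0.0742 and 0.0780 for a 48 nt exon. The sets did not overlap in MYL6 and ENSA, but the FDR in the authors' deposited table was 0.640 for ENSA and higher for MYL6. C17orf76-AS1, a non-coding gene, had 0.129 and 0.124 against 0.118 and 0.119 for a 44 nt exon. Its sets did not overlap either, at a difference of 0.008 in the authors' deposited table. Whether the counting used strand is not given in the sources used here, so reads of this gene and of a gene on the opposite strand may not have been told apart.

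At the low end, 207 short exons (9.55%) had a mean inclusion under 0.01. The deepest of them lie in genes of the ribosome and of actin. The 35 nt exon of RPL37A, which encodes a protein of the large ribosomal subunit, was supported by 2 of 203807 reads, and the 46 nt exon of RPL36A by 26 of 146791. The 41 nt exons of ACTB and ACTG1, the cytoplasmic actins, had 3 of 59796 and 12 of 52477 reads. These genes have near-identical copies or pseudogenes elsewhere in the genome, so a few reads may belong to another locus, and no level is drawn from them.

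The PTB proteins bind pyrimidine-rich RNA and repress exons. Skipping of the 34 nt exon of PTBP1 or PTBP2 shifts the frame. In PTBP1 the exon was included at 0.981 and 0.992 in the first set against 0.986 and 0.990 in the second, with 14788 of 14945 reads supporting inclusion. In PTBP2, the paralogue expressed mainly in neurons, it was at 0.449 and 0.457 against 0.565 and 0.352, with 202 of 399 reads for inclusion. In PTBP3 it was at 1 and 0.990 against 1 and 1, with 340 of 341 reads. The highest PTBP2 library had a 95% Wilson interval of 0.446 to 0.676, below every library of PTBP1 and PTBP3. The sets overlapped in each of the 3 genes, and the authors' deposited table gave differences of -0.002, -0.005 and -0.005 with an FDR of 1 for each.

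The other short exons of these genes lay at opposite ends of the scale. The 31 nt exon of PTBP1 was included at 0.992 and 0.994 in the first set against 0.979 and 0.978 in the second, while the other 34 nt exon of PTBP3 was at 0.0210 and 0.0201 against 0 and 0. For the PTBP1 exon the sets did not overlap, and the authors' deposited table gave a difference of 0.015 at an FDR of 0.00216, below the smallest difference of 0.1 needed for a call. The PTBP3 exon rested on 7 inclusion reads of 336, and 13 reads in library 1 of the second set.

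INSR encodes the insulin receptor, whose A isoform lacks the 36 nt exon and whose B isoform has it. It was at 0.0745 and 0.0231 in the first set against 0 and 0 in the second, with 5 inclusion reads of 108. In the second set, 12 and 17 reads allow levels up to 0.205 and 0.154 by the 95% Wilson interval, so the sets could not be told apart at this depth. NUMB, a regulator of endocytosis and Notch signalling, had its 33 nt exon at 0.507 and 0.436 against 0.540 and 0.161. Library 2 of the second set was the low one, and the authors' deposited table gave a difference of 0.121 (FDR 0.780). Without that library the difference was -0.0683, of the opposite sign, and without library 1 of the second set it was 0.311. MBNL1, itself a splicing factor, had its 36 nt exon at 0.845 and 0.962 against 0.873 and 1, with overlapping sets.

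CLTA, the clathrin light chain A, held one short exon at each end of the scale. Its 38 nt exon was supported by 11708 of 11725 reads. Its 36 nt exon, part of an insert found mainly in neurons, was supported by 7 of 9946 reads. None of the exons in these 7 genes known for a regulated short exon was called.

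**Figure D3:**
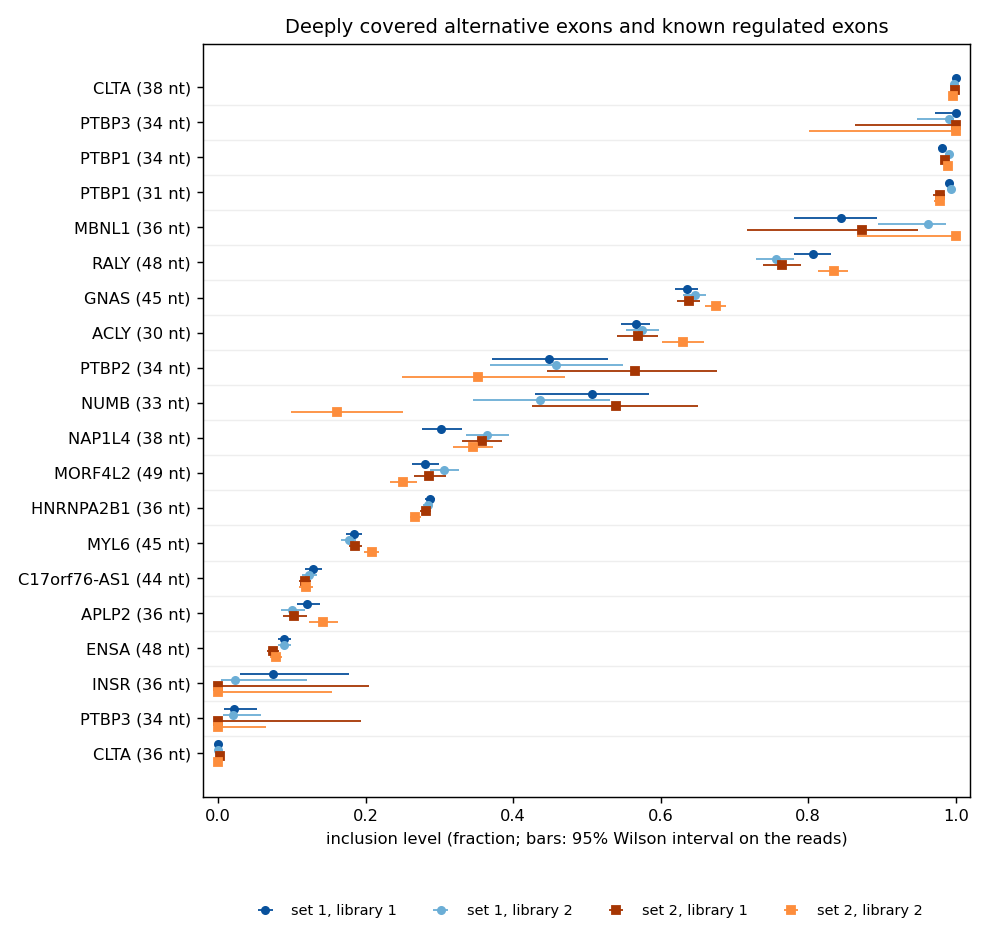
Inclusion level (x axis, fraction from 0 to 1) in each of the 4 libraries for deeply covered alternative exons and exons in genes known for a regulated short exon; bars are 95% Wilson intervals on the junction reads. The 4 libraries lie close together for GNAS and HNRNPA2B1, and NUMB has 1 library, at 0.161, below the other 3.

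An exon was called when the authors' deposited table gave an FDR under 0.05 and a difference in inclusion of at least 0.1. Of the short exons 66 (3.05%) were called, beside 2.5% of all tested exons. They were higher in the first set for 39 exons (1.8%, beside 1.23% of all tested exons) and lower for 27 (1.25%, beside 1.27%). All 66 had a mean inclusion between 0.05 and 0.95, where they made up 10.6%, beside 10.8% of all tested exons in that range. In 55 of the calls the sets did not overlap (2.54% of short exons, beside 1.99% of all tested exons). Each share lay near that of all tested exons. A further 47 exons had an FDR under 0.05 with a difference under 0.1, which was not counted over all tested exons.

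The called exons had few reads. Their median was 38.2 reads per library, against 153.5 for exons not called. With the intermediate exons ordered by depth and divided into 4 groups, 39 of 156 (25%) were called in the shallowest group and 2 of 156 (1.28%) in the deepest. The median range of inclusion over the 4 libraries was 0.257 in the shallowest group and 0.0674 in the deepest. Of the called exons 39 were coding, 20 non-coding, 4 partly coding and 3 unmatched. A length divisible by 3 was found in 27 (40.9%), beside 40.7% of all short exons and 46.7% of intermediate ones. The median difference over intermediate short exons was -0.00088, beside 0.00355 over intermediate exons of all lengths.

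Many called exons fell below a difference of 0.1 without library 2 of the second set. Without it, 38 of 66 exons kept a difference of at least 0.1 (18 of 39 higher and 20 of 27 lower), against 54, 56 and 63 when each other library was left out. It was the lowest of the 4 libraries in 28 of the 39 higher calls. These counts were not made for called exons of other lengths, so they show no trait of short exons. Whether this library accounts for the calls was not tested beyond these values.

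**Figure D4:**
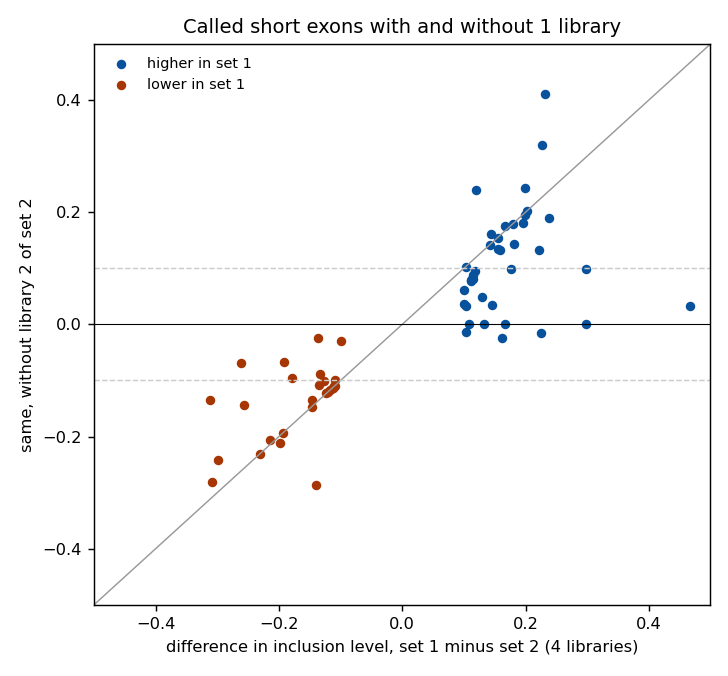
Difference in inclusion level, first set minus second, for the 66 called short exons over all 4 libraries (x axis) and without library 2 of the second set (y axis); the solid line marks equality and dashed lines mark 0.1 and -0.1. Of the 66 points, 38 lie at or beyond the dashed lines, and 6 have the opposite sign or lie at 0.

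The comparison was also run with the spread between libraries as the error. A quasi-binomial model of the reads was used, with adjustment over all tested events by the Benjamini-Hochberg method. It called 0 short exons, beside 3 of 43103 tested exons (0.00696%), and the smallest adjusted p among short exons was 0.502. At an unadjusted p under 0.05 it gave 81 (3.74%, beside 3.81% of all tested exons), which included 28 of the 66 calls. A limma fit with precision weights called 6 (0.277%, beside 0.274% of all tested exons). An unweighted limma fit called 0, with 97 at an unadjusted p under 0.05, but in the test on simulated data it recovered none of the changed events, so its count says nothing about these exons. In that test the weighted fit recovered 45 of 200 changed events with binomial noise and 0 with the scatter measured between libraries. The quasi-binomial model recovered 157 and 80 of 200. The planted changes were larger than 0.147, the median difference of the calls. The measured scatter was taken from the quasi-binomial model's own dispersions. The test therefore does not rank the models, and the count of 0 does not exclude differences of the size called here. For a single exon, 2 libraries against 2 allow no exact permutation p below 0.333.

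The exons described next are those called with the largest differences among those whose sets did not overlap, and each value is an inclusion level. Their differences and FDR come from the authors' deposited table, and the quasi-binomial adjusted p was 0.849 for each of them except EYA4 (0.557). PLEKHA1, an adaptor that binds phosphoinositides through its PH domain, had its 41 nt exon at 0.645 and 0.530 in the first set against 0.398 and 0.301 in the second. The authors' deposited table gave a difference of 0.238 (FDR 0.0396), and without library 2 of the second set it was 0.190. Every first-set library lay above the second set, and the reads were 126 and 100 against 35 and 31. KIF13A, a kinesin motor, had its 39 nt exon at 0.320 and 0.216 against 0.0734 and 0.0658, on 11 to 51 reads. Both second-set libraries were low, and the authors' deposited table gave 0.199 (FDR 0.00679). TMEM241, a membrane protein, had its 47 nt exon at 0.931 and 0.979 against 0.822 and 0.644, a difference of 0.222 (FDR 0.00240) in the authors' deposited table that was 0.133 without library 2 of the second set. LPHN3, an adhesion receptor of the latrophilin family, had its 39 nt exon at 0.248 and 0.155 against 0 and 0, but library 2 of the second set had 1 read.

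EFCAB4B, a calcium-binding protein, had its 46 nt exon at 1 and 0.917 in the first set against 0.547 and 0.907 in the second. Here library 1 of the second set was the low one. ZMYM2, a zinc finger protein of corepressor complexes, had a non-coding 47 nt exon at 0.399 and 0.451 against 0.106 and 0.292. RBM12B, an RNA-binding protein, had a non-coding 49 nt exon at 1 and 1 against 0.756 and 0.847. PHF21B, a PHD finger protein, had a non-coding 46 nt exon at 0.119 and 0.302 against 0.0297 and 0. In ZMYM2, RBM12B and PHF21B both second-set libraries lay below the first set. The authors' deposited table gave differences of 0.231 for EFCAB4B, 0.226 for ZMYM2, 0.199 for RBM12B and 0.196 for PHF21B, with FDR from 6.92e-05 to 0.0429. Leaving out library 1 of the second set gave 0.0517 for EFCAB4B and 0.133 for ZMYM2, and leaving out library 2 gave 0.411 for EFCAB4B. For PHF21B the difference was 0.104 without library 2 of the first set.

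In other higher calls, library 2 of the second set lay far below the rest. CCDC150 had its non-coding 44 nt exon at 0.949 and 1 in the first set against 0.942 and 0.0717 in the second. The difference of 0.467 in the authors' deposited table, the largest of the 66, was 0.0325 without library 2 of the second set, in which 1 of 11 reads supported inclusion, and 0.903 without library 1. EYA4, a transcription coactivator with phosphatase activity, had its 50 nt exon at 0.937 and 0.949 against 0.844 and 0.446, and its difference of 0.298 in the authors' deposited table was 0.0994 without library 2 of the second set and 0.497 without library 1. ZDHHC11, of a palmitoyltransferase family, had its 35 nt exon at 1 and 1 against 1 and 0.403. The ZDHHC11 sets overlapped, and the difference was 0 without library 2 of the second set and 0.597 without library 1. ZDHHC11 has a near-identical neighbour, ZDHHC11B, so its counts are uncertain.

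Among the exons lower in the first set, XRN1, the main cytoplasmic 5′ to 3′ exoribonuclease, had its 39 nt exon at 0.0658 and 0.0948 against 0.361 and 0.416. The authors' deposited table gave -0.308 (FDR 0.00192), and without library 2 of the second set the difference was -0.281. Both second-set libraries were high, on 12 and 19 reads. IL17RC, a subunit of the interleukin-17 receptor, had its 45 nt exon at 0.0989 and 0 against 0.291 and 0.404, with -0.298 (FDR 0.00217) in the authors' deposited table. ATXN2L, an RNA-binding relative of ataxin-2, had a partly coding 37 nt exon at 0.145 and 0.178 against 0.373 and 0.348. The authors' deposited table gave -0.199 (FDR 0.0226) for it. Both sets were tight here, and the difference was -0.212 without library 2 of the second set.

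Several of the lower exons were near full inclusion in the second set. FGD3, an exchange factor for the GTPase Cdc42, had its 31 nt exon at 0.820 and 0.792 against 1 and 1, on 26 to 61 reads. ST3GAL3, a sialyltransferase, had its 48 nt exon at 0.638 and 0.901 against 1 and 1, with 7 reads in library 1 of the second set. FAAH, which degrades fatty acid amides, had its 40 nt exon at 0.626 and 0.819 against 0.929 and 0.945. In FGD3, ST3GAL3 and FAAH the lowest second-set library lay above the highest of the first set. The authors' deposited table gave -0.194, -0.23 and -0.215 for these 3 exons. Without library 1 of the first set the differences were -0.0992 for ST3GAL3 and -0.118 for FAAH, and without library 2 of that set it was -0.362 for ST3GAL3. Of the 27 lower calls, 17 (63.0%) had a second-set mean above 0.9. Of the 39 higher calls, 19 (48.7%) had a first-set mean above 0.9.

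SLC30A6, a zinc transporter, had its 49 nt exon at 0.593 and 0.429 in the first set against 0.646 and 1 in the second. DNM3, a dynamin GTPase, had its 30 nt exon at 0.0310 and 0.0442 against 0.106 and 0.493. KANSL2, a subunit of the NSL histone acetyltransferase complex, had a non-coding 49 nt exon at 0.556 and 0.617 against 0.730 and 0.955. SLC38A6, of an amino acid transporter family, had a non-coding 50 nt exon at 0 and 0 against 0.0666 and 0.315. In all 4, library 2 of the second set was the highest. Without it the differences were -0.135 for SLC30A6, -0.0687 for DNM3, -0.144 for KANSL2 and -0.0666 for SLC38A6, against -0.312, -0.262, -0.256 and -0.191 in the authors' deposited table. Without library 1 of the second set they were -0.489 for SLC30A6, -0.455 for DNM3 and -0.315 for SLC38A6.

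**Figure D5:**
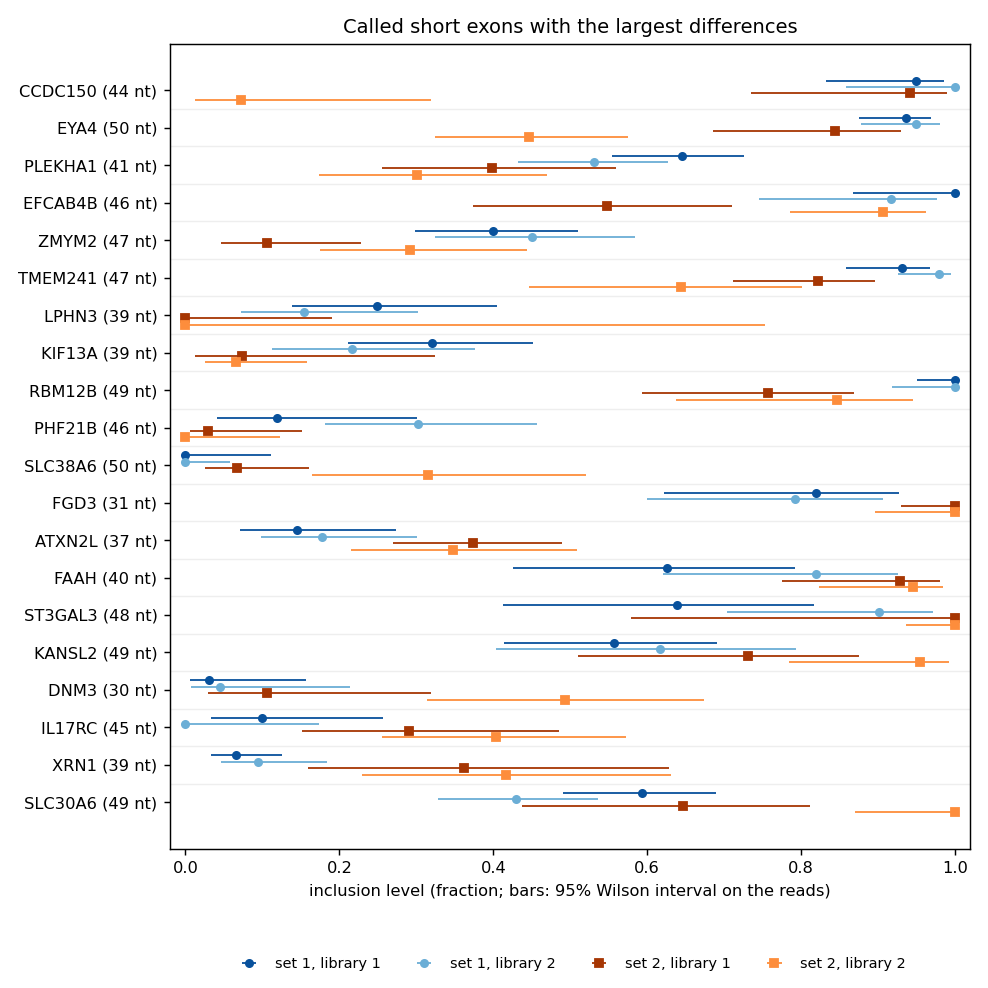
Inclusion level (x axis, fraction from 0 to 1) in each library for the 10 higher and 10 lower called exons with the largest differences and sets that do not overlap; bars are 95% Wilson intervals on the junction reads. CCDC150 and EYA4 have 1 low library, while PLEKHA1, XRN1 and FGD3 have both libraries of a set on the same side.

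Exons passed by the weighted limma fit were chosen for mention after their values were seen. PCBP2 encodes a poly(C)-binding protein, and its 39 nt exon was at 0.792 and 0.788 in the first set against 0.820 and 0.847 in the second, on 4194 to 5501 reads. Its sets did not overlap, the limma adjusted p was 0.00822, and the difference without library 2 of the second set was -0.0299. The authors' deposited table gave -0.043 at an FDR of 0.0937, and the quasi-binomial adjusted p was 0.502. TECR, an enzyme of very long chain fatty acid synthesis, had its 46 nt exon at 0.996 and 0.997 against 0.995 and 0.984 (limma adjusted p 0.0454). Its difference was 0.00726 over all libraries and 0.00167 without library 2 of the second set. AAGAB, a chaperone of adaptor complexes, had its 50 nt exon at 0.984 and 0.997 against 0.919 and 0.997 (limma adjusted p 0.0391). The sets overlapped for AAGAB, whose difference of 0.0325 was -0.00653 without library 1 of the second set. The quasi-binomial adjusted p was 0.849 for both TECR and AAGAB. EYA4 and the 31 nt exon of PTBP1 also passed (limma adjusted p 0.0151 and 0.00426).

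By function, short exons lay in many groups of genes, defined by symbol, and the number called in each group is read against the 3.05% called of all short exons. RNA processing genes held 108, of which 31 were intermediate and 4 (3.7%) were called, 3 higher (DICER1, ELAVL2 and RBM12B) and 1 lower (XRN1). Chromatin and transcription genes held 83, with 5 called (6.02%), 3 higher and 2 lower, among them ZMYM2 and CREBBP. Kinases and phosphatases held 109, with 2 called (1.83%), 1 each way. Vesicle traffic genes held 90, with 3 called (3.33%), DNM3 among them, and cytoskeleton and motor genes 78, with 2 called (2.56%), CEP89 and KIF13A. Mitochondrial and metabolic genes held 65, with 4 called (6.15%), 1 higher and 3 lower. All 4 were in genes of SLC transporters (SLC26A6, SLC30A6, SLC38A6 and SLC7A2). The ubiquitin system held 90, with 1 called (1.11%). Each of these shares rests on 5 calls or fewer, and no group is set apart by them.

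By the authors' deposited table, 0 exons were called among 60 of translation and ribosome genes, 44 of DNA repair and replication genes, 30 of ZNF genes and 10 of nuclear pore genes. With 3.05% called of all short exons, groups of this size hold few calls or none, so these zeros set no group apart. Translation and ribosome genes had 4 intermediate exons of 60 (6.67%) and ZNF genes 15 of 30 (50%), beside 28.7% of all short exons. Of 24 genes for known regulators of short exons, 19 had tested exons of any length, 100 in all. In these 1 exon was called (1.0%, beside 2.5% of all tested exons), a 264 nt exon of MBNL2 at 1 and 1 in the first set against 1 and 0 in the second. SRRM3, SRRM4, RBFOX1, RBFOX3 and NOVA2 had no tested exon.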

How the data were processed

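Poly(A) RNA-seq of 293T cells was used, 2 libraries with and 2 without the ASO. Per the submitters' processing notes, cutadapt, STAR and the build hg19 were used; versions and annotation are not given in the sources used here. The deposited table has the rMATS layout for skipped exons, per the file headers: inclusion and skipping junction read counts per library, form lengths (149 nt for skipping) and inclusion levels, all by the authors. Its p-value and FDR (a q-value) per event are the authors', and its difference in inclusion level is a score from the authors, first set minus second. Libraries of a set share a cell and are named by their place in it.

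Exons with a mean of at least 20 reads were kept, 1 row per exon. Inclusion levels were recomputed from reads and form lengths, with 95% Wilson intervals that cover counting error only, since the reads carry no molecular identifiers. Calls needed a deposited FDR under 0.05 and a difference of at least 0.1. A quasi-binomial model (dispersion moderated by squeezeVar of limma 3.58.1, R 4.3.3, never under 1) and limma on the log2 ratio of reads (pseudocount 0.5), without and with precision weights, were fitted to 54503 tested events with Benjamini-Hochberg adjustment. The dispersion prior was taken from events with at least 10 reads of each form and not, as first planned, from all events, a choice made from the test on simulated data. All fits were tested on simulated data.

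Named exons are the 10 higher and 10 lower calls with the largest differences and sets that do not overlap, the 6 deepest with inclusion of 0.2 to 0.8, the 4 deepest from 0.05 to 0.2 and the 4 deepest under 0.05, those in 7 genes known for a regulated short exon, any passing the quasi-binomial model, and the first 3 calls lost without library 2 of the second set. The exons, lists and rules were chosen with earlier results of these data known. The symbol patterns of the cytoskeleton and translation groups were corrected after their counts were seen. Frame and coding state come from GENCODE release 29 transcripts, and no position was converted between builds. Figures were drawn with matplotlib 3.10.9. The values of 1 exon that passed the weighted limma fit are not reported here.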

Additional observations from a re-analysis of the deposited data

How the results depend on the processing

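The count of 66 called short exons was 22 at a mean of at least 50 reads, 16 at a difference of at least 0.2 and 29 at an FDR under 0.01. It was 24 for lengths of 28 to 39 nt and 42 for 40 to 50 nt, which split the same exons. Leaving out 1 library in turn, with no new test, gave 38 to 63, the lowest without library 2 of the second set. A minimum of 10 reads gave 93, and every tested row of the exons gave 90. None of these changed settings was counted over all tested exons, so the counts show no trait of short exons. The quasi-binomial count of 0 was 6 with precision-weighted limma. Leaving out 1 library in turn gave 0 to 34, with 34 only without library 1 of the second set, where the remaining library of that set was assumed to vary like the first set; the cause was not tested. The share of intermediate exons, 28.7%, was 24.3% at 50 reads or more and 31.0% over every tested row. The share of intermediate exons with a length divisible by 3, 46.7%, was 55.8% in coding exons alone. The median difference of intermediate exons, -0.00088, ranged from -0.00503 to 0.00221 when a library was left out, each shift being under the SD of 0.00443 between libraries of a set. With 2 libraries a set, leaving 1 out cannot move a named exon's difference beyond the pooled spread between libraries of a set. Whether such a move lies within that spread therefore says nothing about how firm a value is. Dropping the form lengths moved 5 values of the named exons by more than that spread and 44 by less. No called exon among them changed sign. Without library 2 of the second set, chosen after seeing the data, the shares were 28.9% and 45.8%. No paired analysis was possible because the table's columns carry no replicate numbers. Depth limits single exons, since called exons had a median of 38.2 reads per library.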
